A study of Mus musculus with 30 samples.

Results

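Translation initiation and elongation factors were examined as 1 group of genes in the livers of mice fed different amounts and sources of protein. The members were all genes in the count tables whose symbol begins with Eif or Eef followed by a number. The Eif2ak kinases (4 genes), the Eif4ebp binding proteins (2 genes) and the Y-linked Eif2s3y were left out, which left 56 of the 14173 genes. All 56 were protein coding. Of 61 factor genes listed by complex, 5 had no row in the tables, namely Eef1a2, Eef1akmt3, Eef1akmt4, Eif4e1b and Eif5a2, and these were not analysed here.

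Liver RNA came from 30 male C57BL6/J mice, 6 in each of 5 diet groups, killed at 6 months of age after 12 weeks on the diet and a short fast. Cas-20% held 20% casein with 0.57 gm% methionine and 0.41 gm% cysteine, and Cas-5% held 5% casein with 0.15 and 0.1 gm%. Soy-20% held 20% soy protein with 0.22 gm% of each, Soy-20% + SAA had both sulfur amino acids (SAA) added to 0.58 and 0.41 gm%, and Soy-10%, labelled as 11.5% soy, held 0.13 gm% of each. Both casein groups came from mice kept first on Cas-20%, and the 3 soy groups from mice kept first on Soy-20%. Each mouse gave 1 library of 3′ end tags, with 7694015 to 14565542 counts, so 1 count stands for 1 read from a transcript's 3′ end and levels were not divided by transcript length. Levels below are the deposited normalized counts, in which each library was divided by its size factor.

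Protein synthesis starts when initiation factors bring the initiator tRNA and the small ribosomal subunit to an mRNA. The GTPase eIF2 carries the initiator tRNA and is recharged by its exchange factor eIF2B, eIF1 and eIF1A hold the scanning ribosome open, eIF3 is the large scaffold on the small subunit, and eIF4F (the cap binding eIF4E, the scaffold eIF4G and the helicase eIF4A) recruits the capped mRNA. Elongation then runs on eEF1A, which delivers aminoacyl-tRNA and is recharged by the eEF1B subunits, and on eEF2, which moves the ribosome along. A shortage of amino acids acts on this machinery mainly through phosphorylation of eIF2 and through mTORC1, which controls the cap binding step and the translation of mRNAs with a terminal oligopyrimidine (TOP) start. Many elongation factor mRNAs carry such a start. These controls act on proteins and on translation, which mRNA counts do not measure.

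The members took between 0.498% and 0.679% of the counts of a library. The level was highest for Eef1a1, which encodes eEF1A1, at a mean of 773 CPM (counts scaled to a common library total) over 30 livers. It was followed by Eef2 at 655 CPM, by the scaffold genes Eif4g2 at 475 CPM and Eif4g1 at 375 CPM, and by Eif5, the GTPase activator of eIF2, at 316 CPM. The levels of Eef1a1 and Eef2 overlapped over the 30 livers, from 613 to 1030 CPM and from 490 to 832 CPM. The lowest was Eif3j2 at 0.719 CPM, which did not pass the filter on low counts in the comparisons of 2 diets with all 6 livers each. The top 8 members held 56.8% of all counts on the group.

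The promoters of 3 members that rose on Cas-5% are shown, as the start regions of genes from eEF1, eEF2 and eIF2. They are the 120 bases before the transcript start given by RefSeq (GRCm38.p6), 5′ to 3′ along the gene. Capitals mark the letters of the E-box CACGTG and the TATA box TATAAA, both seen in Eef2 only. The ETS core, CGGAAG or CTTCCG, has no match in these 3 stretches. It does match in the same 120 bases of Eif3c, which also rose on Cas-5% and is not shown. Eef1b2 is at chr1:63176711-63176830 on the plus strand, Eef2 at chr10:81176511-81176630 on the plus strand and Eif2s2 at chr2:154892907-154893026 on the minus strand.
Eef1b2: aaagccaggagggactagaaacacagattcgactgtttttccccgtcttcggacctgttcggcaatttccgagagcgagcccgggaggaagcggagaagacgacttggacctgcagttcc
Eef2: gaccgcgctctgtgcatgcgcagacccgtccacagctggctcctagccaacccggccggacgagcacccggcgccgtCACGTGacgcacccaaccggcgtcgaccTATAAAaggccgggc
Eif2s2: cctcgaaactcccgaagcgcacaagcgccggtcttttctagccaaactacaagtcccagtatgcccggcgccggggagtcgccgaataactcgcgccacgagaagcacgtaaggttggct

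RefSeq promoters, each the 250 bases before and 50 after the start, were at hand for 44 of the 56 members. On either strand, the ETS core was in 21 of the 44 (47.7%) against 17.2% of all 27025 promoters, the GC box GGGCGG in 32 (72.7%) against 35.9%, the E-box in 10 (22.7%) against 7.24%, and the TATA box in 4 (9.09%) against 14.2%. The core of the amino acid response element, TGATGCAA, was in 0 of the 44 and in 0.929% of all promoters. Of the members that rose on Cas-5%, 7 had a promoter at hand. The ETS core was in 4 of these 7 (Eef1b2, Eef2, Eef2kmt and Eif3c), the GC box in 3, the E-box in 3 and the TATA box in 1. Matches of letters are descriptions and not binding sites.

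In 4 libraries the counts leaned toward genes with GC-rich 3′ ends, and these stood apart before any diet was compared. The 3′ GC slope of a library is the change of its log2 level, relative to the mean library, per 10% of GC in the last 200 bases of a transcript. It was 0.0581, 0.195, 0.192 and 0.215 in livers 3 to 6 of Soy-20% + SAA and lay between -0.0715 and 0.039 in the other 26 livers. Each comparison that includes Soy-20% + SAA is therefore given with and without these 4 livers. Without them only livers 1 and 2 of that diet remained, and fewer livers make a call harder to reach. The labels do not tie these 4 livers to a batch. Hepatocyte markers (6 of 6 in the tables, Alb and Ttr among them) were high in every library, with a summed normalized count of 701992 to 939026. The median sum was 774691 on Cas-20% and 882572 on Cas-5%, with overlap.

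The first comparison was of Cas-5% with Cas-20%, the effect of casein restriction. Translation factors moved in both directions and by small amounts. Of 55 members tested, 11 rose and 4 fell by edgeR's quasi-likelihood test at an adjusted p of 0.05 or less, and none changed by as much as 1 on the log2 scale. The 15 called members were 27.3% of those tested, beside 24.9% of all 12076 genes (11.6% higher, 13.3% lower), so that the number of calls stood near the background. The median log2 fold change was 0.08 over the members and 0.02 over all genes.

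**Figure D1:**
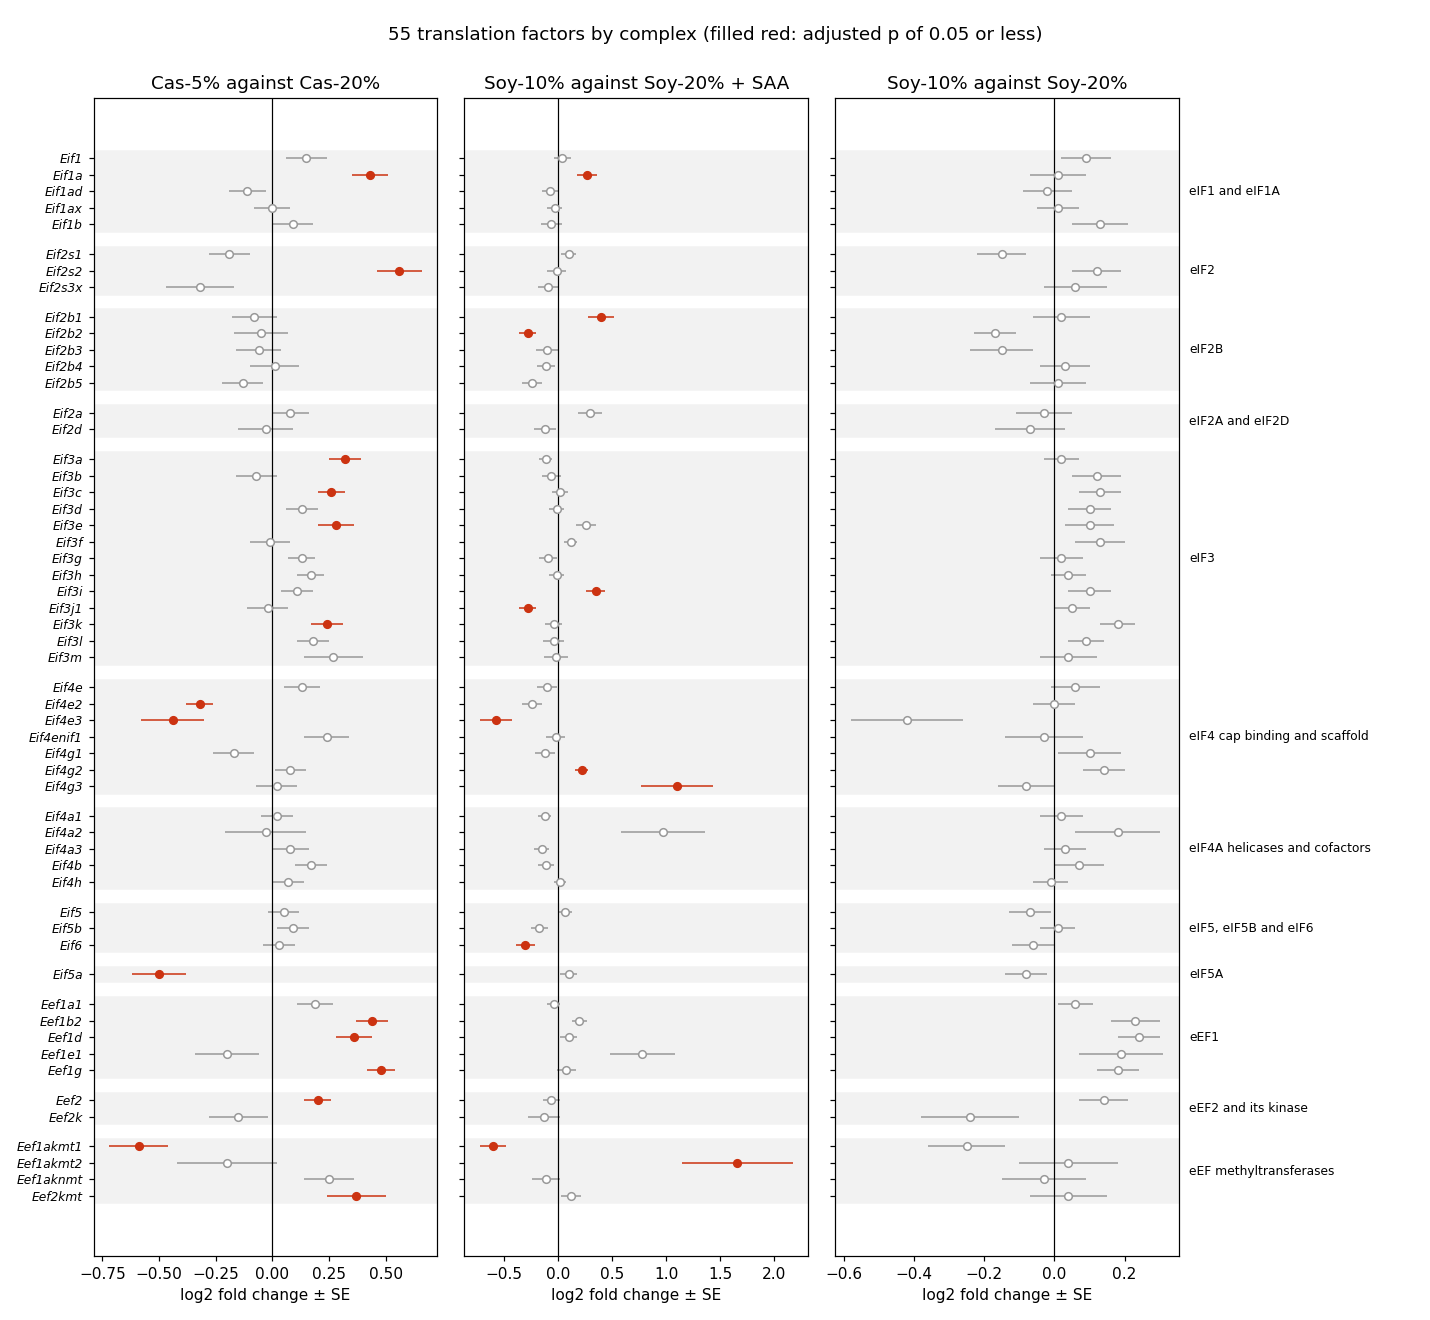
Log2 fold change of each tested member with its standard error (x axis, log2 scale, range differs between panels), by factor complex (y axis), for Cas-5% against Cas-20%, Soy-10% against Soy-20% + SAA and Soy-10% against Soy-20%. Red points are called at an adjusted p of 0.05 or less. The red points are 15 of 55 in the casein panel, 11 of 55 in the first soy panel and 0 of 55 in the second.

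The subunits of the exchange factor eEF1B rose together. Eef1g, the gamma subunit, had normalized counts of 481.6, 514.6 and 580.3 (lowest, median and highest of 6 livers) on Cas-20% and of 687.8, 716.7 and 772.6 on Cas-5%. Every Cas-5% liver was above every Cas-20% liver, and the log2 fold change was 0.48 ± 0.06 (SE, edgeR adjusted p = 2.5e-05). Eef1b2, the catalytic subunit, went from 2290.2, 2494.5 and 2733.4 to 3125.2, 3257.4 and 3903.4, again without overlap, a log2 fold change of 0.44 ± 0.07 (adjusted p = 0.00025). Eef1d, the delta subunit, went from 710.5, 736.7 and 813.9 to 857.2, 904.3 and 1133.7, a change of 0.36 ± 0.08 (adjusted p = 0.0021). All 3 eEF1B subunits were therefore raised in every Cas-5% liver. Eef1a1 itself overlapped between the diets, at a median of 7850.5 on Cas-20% and 8872.7 on Cas-5%, and missed the threshold at 0.19 ± 0.08 (adjusted p = 0.085). Eef1e1, an accessory protein of the tRNA synthetase complex that carries the eEF1 name, had a log2 fold change of -0.2 ± 0.14 (adjusted p = 0.32).

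Of the remaining elongation genes, Eef2 rose from 6230.2, 6693.3 and 7077.1 to 7212, 7508.6 and 8436.9 with no overlap, by 0.2 ± 0.06 on the log2 scale (adjusted p = 0.027). Its kinase Eef2k, which slows elongation by phosphorylating eEF2, was at -0.15 ± 0.13 (adjusted p = 0.43). Among the methyltransferases, Eef2kmt, which modifies eEF2, rose by 0.37 ± 0.13 (adjusted p = 0.04), a call kept under 9 of 19 alternatives, with adjusted p values up to 0.22. Eef1akmt1, which modifies eEF1A, fell by 0.59 ± 0.13 on the log2 scale (adjusted p = 0.0027), with every Cas-5% liver at or below 100.9 and every Cas-20% liver at or above 103.6.

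Within eIF2 only 1 of 3 subunits was called. Eif2s2, the beta subunit, had 1756.5, 2081.2 and 2664.3 on Cas-20% and 2843.4, 3098.5 and 3526.1 on Cas-5%, the largest rise among the members at 0.56 ± 0.10 (adjusted p = 0.00046) and with no overlap. Eif2s1, the alpha subunit that stress kinases phosphorylate, was at -0.19 ± 0.09 (adjusted p = 0.12), and Eif2s3x, the gamma subunit, at -0.32 ± 0.15 (adjusted p = 0.14). The estimates of the partner subunits lay on the other side of 0 from that of Eif2s2. None of the 5 subunits of eIF2B was called, with log2 fold changes from -0.13 to 0.01. Eif2a and Eif2d, which can place the initiator tRNA without eIF2, were at 0.08 and -0.03.

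In eIF3, 4 of 13 tested subunits rose and none fell, with a median log2 fold change of 0.17. Eif3a, which encodes the largest core subunit, went from 1998.8, 2289.7 and 2614.1 to 2559.6, 2817.3 and 3021.5, and only the lowest Cas-5% liver lay within the Cas-20% range (0.32 ± 0.07, adjusted p = 0.0032). Eif3c, another core subunit, went from 1838.2, 1966 and 2006.5 to 2186.4, 2278.6 and 2529.6 without overlap (0.26 ± 0.06, adjusted p = 0.0038). The smaller Eif3e (0.28 ± 0.08, adjusted p = 0.021) and Eif3k (0.24 ± 0.07, adjusted p = 0.019) rose with overlap. Eif3b, another eIF3 subunit, did not follow at -0.07 ± 0.09 (adjusted p = 0.58). The other 8 subunits ran from -0.02 for Eif3j1 to 0.27 for Eif3m.

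Of the factors that hold the scanning ribosome, Eif1a rose from 385.4, 431.9 and 504.6 to 533.2, 599.9 and 643.3 with no overlap (0.43 ± 0.08, adjusted p = 0.00066). Eif1ax, its X-linked relative, had an estimate of 0.00 ± 0.08 (adjusted p = 0.98), and Eif1 was at 0.15 ± 0.09 (adjusted p = 0.27). How reads were shared between such related copies is not given in the sources used here. Eif5, Eif5b and Eif6, which act at start codon choice, subunit joining and keeping the large subunit free, were at 0.05, 0.09 and 0.03, and none was called.

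Beside Eef1akmt1, the members that fell were Eif4e2 and Eif4e3 in the cap binding group and Eif5a. Eif4e2, a cap binding protein that does not bind eIF4G in the way eIF4E does and represses translation, went from 505.8, 564.9 and 598.2 to 398.7, 444.4 and 459.5, so every Cas-5% liver was lower (-0.32 ± 0.06, adjusted p = 0.0016). Eif4e3 fell too (-0.44 ± 0.14, adjusted p = 0.03), a call kept under 11 of 19 alternatives, with adjusted p values up to 0.17, whereas the main cap binding gene Eif4e was at 0.13 ± 0.08 (adjusted p = 0.25). The scaffolds Eif4g1, Eif4g2 and Eif4g3 were at -0.17, 0.08 and 0.02, and the helicases Eif4a1 and Eif4a2 at 0.02 and -0.03, none of them called. Eif4b, a helper of the helicase, was at 0.17 ± 0.07 (adjusted p = 0.093), and Eif4h at 0.07 ± 0.07 (adjusted p = 0.46). Eif5a, the hypusine-bearing factor that relieves stalled ribosomes, had 1524.2, 1845.9 and 2725.1 on Cas-20% and 1169.3, 1342.8 and 1548.3 on Cas-5%. It fell by 0.50 ± 0.12 on the log2 scale (adjusted p = 0.0052), and its highest Cas-20% liver, liver 2, stood far above the rest. Without that liver the change was -0.38.

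**Figure D2:**
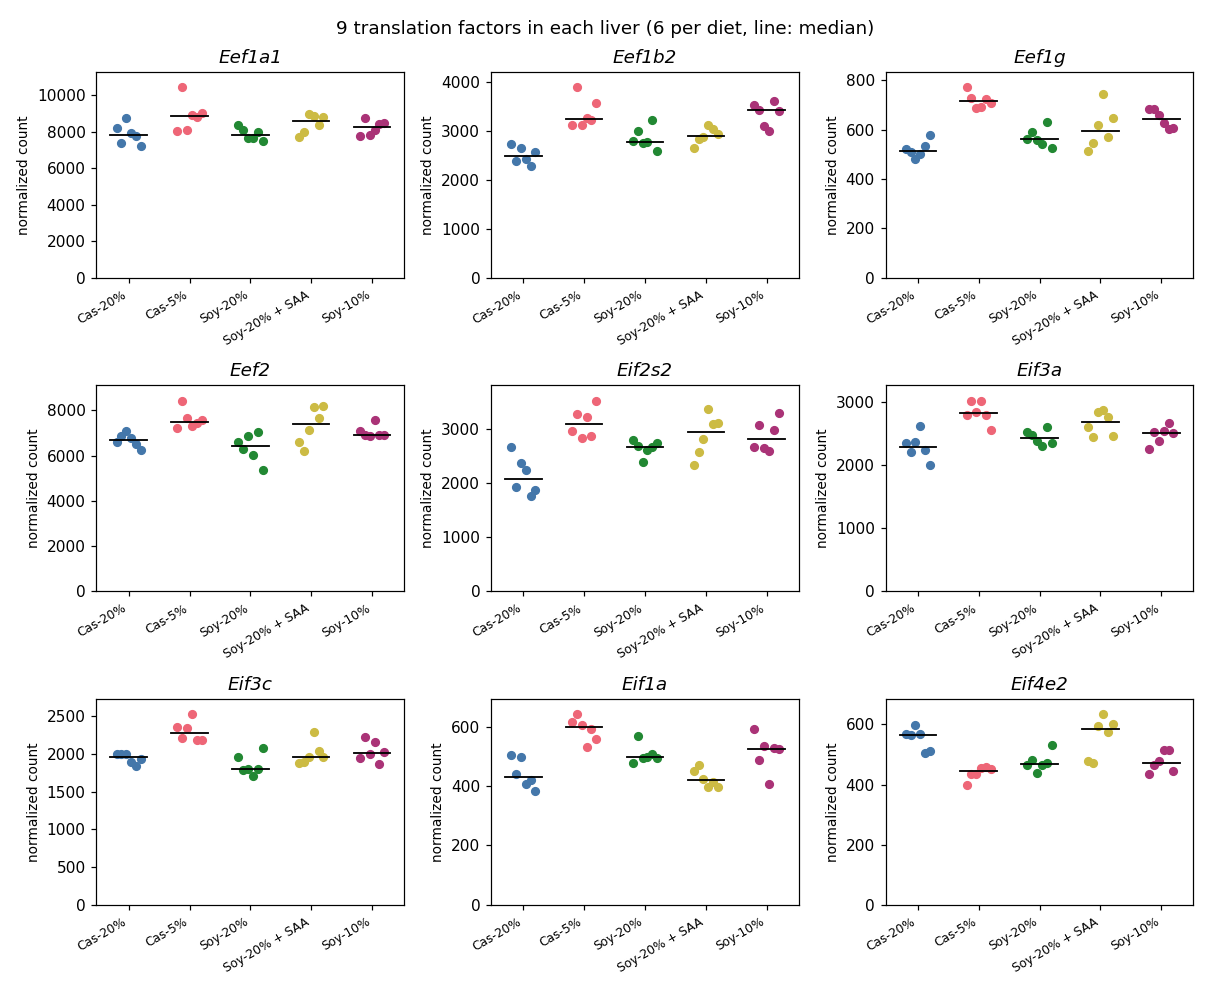
Normalized count (y axis, from 0) of 9 members in each of 30 livers, by diet (x axis), with a line at the median of each diet. The Cas-5% points lie above all Cas-20% points for Eef1b2, Eef1g, Eef2, Eif2s2, Eif3c and Eif1a and below them for Eif4e2, and the points of Eef1a1 overlap.

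In all, 7 members were higher and 2 were lower in every Cas-5% liver than in every Cas-20% liver, which is 9 of 55, beside 12.9% of the 12049 genes with a mean of at least 10 normalized counts. Of the 9 members in a textbook list of TOP mRNAs, 5 rose and none fell (median log2 fold change 0.20), beside 11.6% of all genes that rose. They were Eef1g, Eef1b2, Eef1d, Eif3e and Eef2. The cytosolic ribosomal protein genes, which are TOP mRNAs as well, moved the same way, with 64 of 84 higher, none lower and a median of 0.35. In Soy-10% against Soy-20% + SAA, 0 of the 9 TOP members were called. Of 84 ribosomal protein genes, 21 were higher and 1 lower, beside 8.51% of all genes that rose. Without Soy-20% + SAA livers 3 to 6 these were 0 of 9 and 12 higher, beside 2.54% of all genes called. Against Soy-20% they were 0 of 9 and 1 higher, beside 0.866% of all genes called. The scale mattered for Cas-5%. The 10 most abundant genes took 24.8% to 27.6% of the counts on Cas-5% and 29.4% to 34.1% on Cas-20%. With library totals as the scaling, the median log2 fold change was 0.195 over all genes and 0.255 over the members, 31 members were called higher and 2 lower, and 38.6% of all genes were called. Eif4e2 and Eif4e3 then missed the threshold (adjusted p = 0.11 and 0.16).

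Skeletal muscle markers (4 of 4 in the tables) summed to between 0 and 3.1 normalized counts on Cas-20% and between 23.8 and 59.3 on Cas-5%, and stellate cell markers (5 of 5) to between 3254.9 and 4100.5 and between 3775.7 and 5133.4. Other lists had lower median sums on Cas-5%, with overlap. These were red blood cell (25136.8 on Cas-20% and 16556.1 on Cas-5%), pancreatic acinar (434.7 and 260.8) and cholangiocyte markers (528.4 and 426.2). Their part in the differences above was not tested. Eef2 missed the threshold without Cas-20% liver 1, 5 or 6 or without Cas-5% liver 2, at adjusted p values of 0.054 to 0.067, and Eif3e missed it with the 3′ GC slope in the model (0.21, adjusted p = 0.12). Eef2kmt missed it without Cas-20% liver 2, 3 or 4 or Cas-5% liver 1, 2, 3, 5 or 6, at adjusted p values of 0.053 to 0.092, and Eif4e3 without Cas-20% liver 2, 4 or 5 or Cas-5% liver 1 or 2, at 0.054 to 0.063. With the slope in the model Eef2kmt was at 0.23 (adjusted p = 0.22) and Eif4e3 at -0.29 (adjusted p = 0.17). In bulk liver RNA, fewer cells of a type and less RNA per cell cannot be told apart.

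Genes that control the factors were described from lists of the pathway, and their counts stand beside the 24.9% of all genes called. Of 14 tested genes of cap and mTORC1 control, 3 rose and 2 fell on Cas-5%. Eif4ebp1, the inhibitor of eIF4E that mTORC1 switches off, went from 520.7, 567 and 585 to 808, 842.3 and 1044.7 (0.68 ± 0.08). Pdcd4, an inhibitor of eIF4A, fell from 2315.1, 2640.6 and 3070.8 to 1251.7, 1422.6 and 1722.4 (-0.86 ± 0.08), and Mknk2, an eIF4E kinase, fell as well (-0.88 ± 0.10). Mtor (0.44 ± 0.11) and Larp1, which binds TOP mRNAs (0.32 ± 0.10), were the other 2 that rose. Of 11 tested genes for eIF2 alpha kinases, their phosphatase and targets, 1 rose, the ATF4 target Trib3 (0.69 ± 0.20). The mitochondrial elongation factors Gfm1 (-0.48 ± 0.08) and Gfm2 (-0.36 ± 0.08) fell, 2 of 9 genes of mitochondrial translation. None of the 8 tested hypusine and diphthamide enzymes or the 8 tested termination and recycling genes was called.

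Soy restriction was first set against the supplemented control, Soy-10% against Soy-20% + SAA. Of 55 members, 6 rose and 5 fell, 20% of those tested beside 17% of all 11983 genes (8.51% higher, 8.47% lower). The 6 that rose were Eef1akmt2, Eif1a, Eif2b1, Eif3i, Eif4g2 and Eif4g3. The 5 that fell were Eef1akmt1, Eif2b2, Eif3j1, Eif4e3 and Eif6. Without livers 3 to 6 of Soy-20% + SAA no member was called by edgeR, with 10 at an unadjusted p under 0.05, and 2.54% of all genes were called. With the 3′ GC slope in the model no member was called either, with 8 at an unadjusted p under 0.05, and 2.6% of all genes were called. Leaving out 1 liver also moved the count, to 18 or 16 without Soy-20% + SAA liver 1 or 2, where 3119 or 2819 of all genes were called. It was 3 to 5 without any of livers 3 to 6, with 1219 to 1502 of all genes called. Without any Soy-10% liver other than liver 4 it was 4 to 6, with 1314 to 1489 of all genes called.

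**Figure D3:**
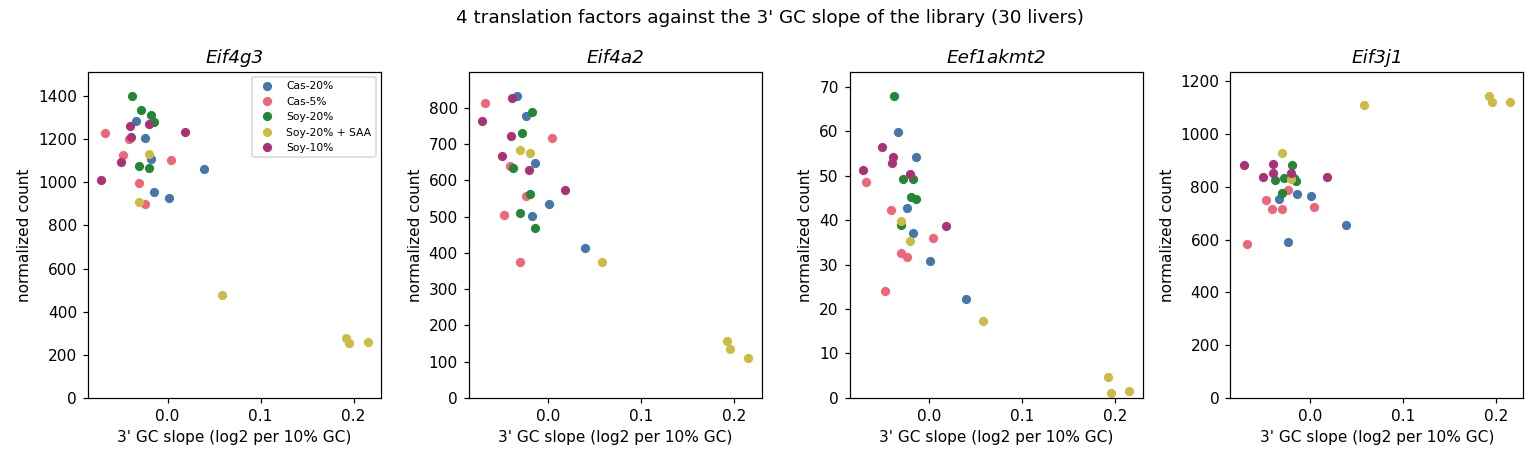
Normalized count (y axis, from 0) of Eif4g3, Eif4a2, Eef1akmt2 and Eif3j1 in 30 livers against the 3′ GC slope of the library (x axis, log2 per 10% GC). Livers 3 to 6 of Soy-20% + SAA, with slopes from 0.0581 to 0.215, sit below the other livers for Eif4g3 and above them for Eif3j1.

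The members with the highest estimates, Eef1akmt2, Eif4g3 and Eif4a2, were at their lowest in these 4 libraries, and Eif3j1 was at its highest. Eef1akmt1, Eif4e3 and Eef1e1 overlapped the other diets there. In livers 3 to 6 Eef1akmt1 (-0.6) had 120.8 to 162.7, Eif4e3 (-0.57) 73.6 to 118 and Eef1e1 (0.78, not called) 20 to 62. Eif4g3, a scaffold related to eIF4G1, had 1129.5, 910.9, 475.3, 254, 277.8 and 259.1 in Soy-20% + SAA livers 1 to 6, while the livers of the other diets lay between 899.2 and 1400.4. Its log2 fold change in Soy-10% was 1.10 ± 0.33 (adjusted p = 0.036) and 0.20 ± 0.11 without livers 3 to 6 (adjusted p = 0.39). The helicase Eif4a2 had 674.6, 683.5, 374.7, 134.2, 157.5 and 111 in the same order, and the methyltransferase Eef1akmt2 had 35.4, 39.7, 17.4, 1, 4.7 and 1.5. Livers 1 and 2 lay within the range of the other diets for both. Eef1akmt2 went from 1.66 ± 0.51 to 0.43 ± 0.19 without the 4 livers (adjusted p = 0.30), and Eif4a2, not called, from 0.97 ± 0.39 to 0.03 ± 0.12. Eif3j1, the loosely bound eIF3 subunit, had 1111.4 to 1144.7 in livers 3 to 6 against 582.7 to 929.7 in all the others, and its change went from -0.28 ± 0.08 to -0.04 ± 0.07. The last 200 bases held 41.6% GC for Eif4g3 and 43% for Eif3j1. Over 55 members, Pearson's r between this GC content and the log2 fold change was -0.14 (Spearman's rho -0.24) for Soy-10% against Soy-20% + SAA. For Soy-20% + SAA against Soy-20% it was 0.22 (rho 0.3). What moved these members in the 4 libraries was not tested.

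Of the other 8 calls, 5 were at no more than 0.16 in size without the 4 livers. These were Eif6 (-0.30 and -0.07), Eif2b1 (0.40 and 0.13), Eif3i (0.35 and 0.16), Eif1a (0.27 and 0.15) and Eif2b2 (-0.28 and -0.14). Eif4e3 was at -0.57 ± 0.15 with all livers and at -0.57 ± 0.18 without the 4 (adjusted p = 0.12), and Eef1akmt1 at -0.60 ± 0.12 and -0.37 ± 0.14 (adjusted p = 0.20). Eif4g2, the scaffold of cap-independent initiation, was at 0.22 ± 0.06 and 0.19 ± 0.08 (adjusted p = 0.26). The eEF1B subunits, uncalled in both, were at 0.20, 0.10 and 0.08 for Eef1b2, Eef1d and Eef1g with all livers and at 0.28, 0.31 and 0.27 without the 4, so their estimates were larger once those libraries were out. Of 14 tested genes of cap and mTORC1 control, 2 rose and 3 fell with all livers, beside 17% of all genes called. Eif4ebp1 (median 594.2 on Soy-20% + SAA and 784.8 on Soy-10%) and Pdcd4 (2186.5 and 1687.2) were still called without the 4. Rptor was called with all livers only. So were Ppp1r15b, Dph3 and Mtif3 of the other lists.

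Soy-10% was also set against Soy-20%, whose libraries all had slopes within the common range. No member was called by edgeR, with 11 at an unadjusted p under 0.05, and 0.866% of all 11897 genes were called. DESeq2 called 3 members, Eef1b2, Eif3k and Eef1d, all higher, beside 1.92% of all genes. Eef1d had 749.7, 792.8 and 906 on Soy-20% and 874.4, 948.9 and 1061 on Soy-10% (0.24 ± 0.06, edgeR adjusted p = 0.11). Eef1b2 had 2595.4, 2785.7 and 3234.7 against 2995.1, 3433.9 and 3620.9 (0.23 ± 0.07, adjusted p = 0.13), and Eef1g was at 0.18 ± 0.06 (adjusted p = 0.20). Eif3k was the only member whose livers did not overlap, with 671.3 to 727.1 on Soy-20% and 775.1 to 871.8 on Soy-10% (0.18 ± 0.05, adjusted p = 0.11), beside 1.35% of all genes without overlap. All 13 tested eIF3 subunits had log2 fold changes above 0, from 0.02 to 0.18, though none passed the threshold. Cholangiocyte markers (5 of 5) summed to 393.5 to 548.4 on Soy-20% and 265.6 to 352.4 on Soy-10%, and skeletal muscle markers to 22.5 to 51.3 and 0.9 to 22.3. Pancreatic acinar markers (8 of 10) summed to 200.1 to 461 on Soy-20% and reached 8079.1 in 1 Soy-10% liver, beside a median of 232.5. Their part in these differences was not tested. Eif4ebp1, outside the group, was called, at 0.33 ± 0.07 (adjusted p = 0.039).

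Casein and soy restriction shared no livers, so the members' changes could be set side by side. The 15 members called after casein restriction had the same sign in Soy-10% against Soy-20% in 15 of 15 cases, Eif4e2 at a value of 0.00 to 2 decimals among them, and in 10 of 15 against Soy-20% + SAA. Over 55 members, Pearson's r between the casein and soy log2 fold changes was 0.08 (Spearman's rho 0.26) with Soy-20% + SAA as control, 0.61 (rho 0.57) without its livers 3 to 6 and 0.57 (rho 0.45) with Soy-20% as control. These are descriptions across genes that share libraries, and the 2 soy comparisons share the Soy-10% livers. In Soy-10% against Soy-20%, 38 of all 55 members were above 0. The same signs and correlations were not computed over all genes, so they are not shown to be particular to the members. Eef1g was at 0.48 with casein and 0.18 with soy against Soy-20%, and Eif2s2 at 0.56 and 0.12. Protein was cut to 5% with casein and to 11.5% with soy, so source and degree of restriction cannot be told apart here.

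**Figure D4:**
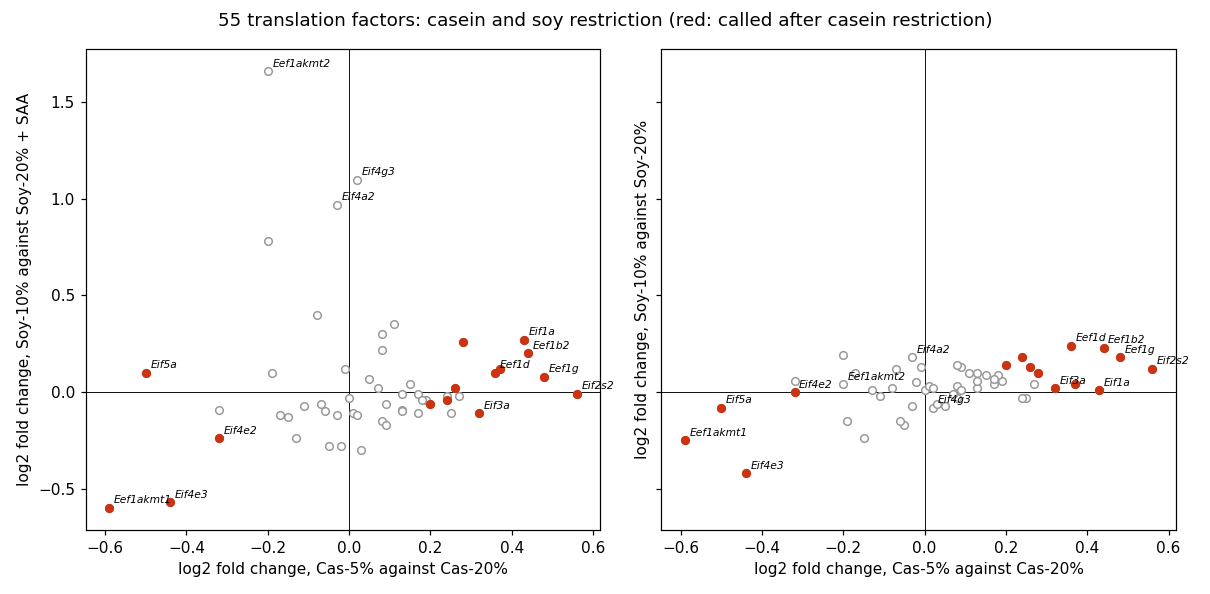
Log2 fold change of 55 members for Cas-5% against Cas-20% (x axis) and for Soy-10% against Soy-20% + SAA (left) or Soy-20% (right) on the y axis, with members called after casein restriction in red. Pearson's r is 0.08 on the left, where Eef1akmt2, Eif4g3 and Eif4a2 lie highest, and 0.57 on the right.

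The difference between the casein and the soy effect was tested directly over 24 livers. Casein went from 20% to 5% of the diet and soy from 20% to 11.5%, so protein source and degree of restriction cannot be told apart. With Soy-20% as the soy control, methionine also fell less, from 0.22 to 0.13 gm% beside 0.57 to 0.15 gm% with casein. It was called for 6 of 56 members, 10.7%, beside 8.69% of all 12532 genes (3.2% positive, 5.49% negative). The casein effect was the more positive for Eif3a (difference 0.42 ± 0.09, adjusted p = 0.0081), Eif2s2 (0.56 ± 0.14, adjusted p = 0.015) and Eef1g (0.39 ± 0.10, adjusted p = 0.021). It was the more negative for Eif5a (-0.61 ± 0.15, adjusted p = 0.015), Eef1akmt2 (-1.87 ± 0.57, adjusted p = 0.042) and Eif2b1, the alpha subunit of eIF2B (-0.50 ± 0.16, adjusted p = 0.046). With Soy-20% as the soy control, 5 members were called, beside 5.99% of all genes. Eif3a (0.29), Eif2s2 (0.44) and Eef1g (0.30) were among them, together with Eif1a (0.41) and Eif4e2 (-0.32). Without livers 3 to 6 of Soy-20% + SAA, 0 were called by edgeR, with 4 at an unadjusted p under 0.05, beside 2.27% of all genes. Leaving out Soy-20% + SAA liver 1 or 2 gave 13 or 12 called members, with 1941 or 1625 of all genes called. Leaving out any other liver gave 4 to 6 members, with 719 to 1190 of all genes called.

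Adding sulfur amino acids to Soy-20% gave no called member by edgeR, with 21 at an unadjusted p under 0.05, and 0.00838% of all genes were called. DESeq2 called 5 members, beside 7.42% of all genes. Without livers 3 to 6, 2 members had an unadjusted p under 0.05, and with the slope in the model 1 did. Between the 20% protein diets of matched sulfur amino acids, Cas-20% against Soy-20% + SAA, 1 of 55 members was called, Eif3j1, lower on Cas-20% (-0.52 ± 0.10, adjusted p = 0.032), beside 2.43% of all genes. DESeq2 called 10 members, beside 9.63% of all genes, and without livers 3 to 6 no member was called by edgeR, with 2 at an unadjusted p under 0.05. Without Soy-20% + SAA liver 1 or 2 the counts were 11 and 9 for the supplement, with 1587 and 1118 of all genes called. They were 13 and 9 for the protein source, with 1817 and 1247 of all genes called. Eif3j1 missed the threshold without any liver other than these 2 and Cas-20% liver 1.

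Over all 5 diets at once, 28 of 56 members differed between diets, 50% beside 43.4% of all 12561 genes. By complex these were all 3 of eIF5, eIF5B and eIF6, 7 of 14 in eIF3, 4 of 7 in the cap binding group, 3 of 5 in eEF1, 2 of 3 in eIF2, 2 of 5 in eIF2B, 2 of 4 methyltransferases, 1 of 5 in the helicase group, 1 of 5 in eIF1 and eIF1A, 1 of 2 in eEF2 and its kinase, 1 of 2 in eIF2A and eIF2D, and Eif5a. The smallest adjusted p values were those of Eif3j1 (1.2e-05), Eef1b2 (1.8e-05), Eef1g (4.5e-05), Eif1a (5.8e-05) and Eef1akmt1 (8.2e-05). Without livers 3 to 6 of Soy-20% + SAA, 19 of 56 differed, beside 26.2% of all genes, and the adjusted p of Eif3j1 was 0.0096. Over the 4 diets without Soy-20% + SAA, 21 of 55 differed, beside 29.3% of all genes. In these 4 diets the lowest mean was on Cas-20% for 27 of 56 members, on Cas-5% for 16, on Soy-20% for 8 and on Soy-10% for 5. The highest was on Cas-5% for 19, on Soy-10% for 19, on Cas-20% for 10 and on Soy-20% for 8. The same tallies were not made over all genes. Eef1b2 had medians of 2494.5 on Cas-20%, 2785.7 on Soy-20%, 2911.2 on Soy-20% + SAA, 3257.4 on Cas-5% and 3433.9 on Soy-10%, and the ranges of the latter 2 diets overlapped.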

How the data were processed

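Raw counts per gene and size-factor normalized counts for 30 liver libraries (QuantSeq 3′ FWD) were deposited. The count tables hold whole reads per gene made by the authors on a commercial pipeline, with builds GRCm38 and mm10 named per the labels, and the aligner is not given in the sources used here. The normalized values are a signal the authors obtained by dividing counts by DESeq2 size factors (DESeq2 1.30, R 4.0.3 in the submitters' processing notes). The labels and the study's methods give different read lengths. Library totals were 7694015 to 14565542 counts, and with 6 libraries a diet the precision was set by the spread between livers.

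Counts were tested with edgeR 4.0.16 (TMM scaling, filterByExpr, quasi-likelihood F test) in R 4.3.3, with Benjamini-Hochberg adjustment over all genes and calls at 0.05 or less. Standard errors were the log2 fold change over the square root of F. Only the groups compared entered each fit. The alternatives were DESeq2 1.42.0, its size factors, no filter on low counts, the replicate number as a block, the 3′ GC slope as a covariate, 1 fit over 5 diets, Soy-20% as control and leaving out each liver. Scaling by library totals and leaving out livers 3 to 6 of Soy-20% + SAA are also given, the former chosen after seeing the data. Only the fit of the casein comparison was tested on simulated counts, which held no libraries with a 3′ GC slope like that of Soy-20% + SAA livers 3 to 6. The members, lists and tests were chosen with earlier results of these data known. The naming rule took the most abundant member of each complex, up to 8 called members in each direction of a comparison and up to 10 over 5 diets by adjusted p, a list of core members whatever their values, and up to 3 called genes of each pathway list in each comparison. It gave 40 members. Some of these, such as Eif2b3 and Eif2b4, and some pathway genes of comparisons other than casein restriction are not described singly. Eef1e1, Eif1ax, Eif2d, Eif3b, Eif3j2 and Eif3m, and Larp1 of a pathway list, were named after their values were seen. Replicate numbers come from sample titles. Same-numbered livers of 2 diets mostly did not deviate together (0 to 4 of 6 pairs with a correlation over 0.1). The exception was Soy-20% + SAA with Cas-5%, with a median correlation of 0.164 for same numbers and -0.014 for other numbers. The numbers were not taken to pair the mice. Promoter sequences are RefSeq's for GRCm38.p6.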

Additional observations from a re-analysis of the deposited data

Results flagged for a closer look

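In 14 of 200 groups of 6 livers, the highest or lowest liver lay farther from its neighbour than Dixon's 95% limit allows, and chance flags about 1 group in 20. The normalized counts were 67.9 for Eef1akmt2 in Soy-20% liver 4, 38.6 for Eef1akmt2 in Soy-10% liver 4, 7571.2 for Eef2 in Soy-10% liver 4 and 2784.1 for Eif1 in Cas-5% liver 6. They were 2681.1 for Eif1 in Soy-20% liver 3, 568 for Eif1a in Soy-20% liver 2, 228.3 for Eif2b1 in Cas-20% liver 1 and 312.5 for Eif2b5 in Soy-20% liver 3. They were 161.7 for Eif2s3x in Soy-20% liver 1, 252.9 for Eif2s3x in Soy-10% liver 5 and 2298.1 for Eif3c in Soy-20% + SAA liver 4. Eif3i was at 862.1 in Cas-20% liver 1, Eif3j1 at 582.7 in Cas-5% liver 1 and Eif5a at 2725.1 in Cas-20% liver 2.

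The casein effect differed from the soy effect, with Soy-20% + SAA as the soy control, by 0.42 for Eif3a, 0.39 for Eef1g, 0.56 for Eif2s2, -0.5 for Eif2b1, -1.87 for Eef1akmt2 and -0.61 for Eif5a on the log2 scale, by edgeR's test of the difference. None of these was called without livers 3 to 6 of Soy-20% + SAA, which left livers 1 and 2 of that diet. The differences were then 0.35 for Eif3a, 0.2 for Eef1g, 0.33 for Eif2s2, -0.22 for Eif2b1, -0.63 for Eef1akmt2 and -0.48 for Eif5a. Protein source and degree of restriction cannot be told apart in these differences.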

How the results depend on the processing

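No called member reversed its direction under any alternative run. In brackets is the share of all genes called in the same fit. Scaling by library totals, chosen after seeing the data, gave 33 called members for casein restriction (38.6%) and 1 for soy restriction against Soy-20% (0.975%). It gave 5 for protein source (3.55%), 19 for the difference of the effects (12.7%) and 43 over 5 diets (52.2%). DESeq2 gave 3 for soy restriction against Soy-20% (1.92%), 5 for the supplement (7.42%) and 10 for protein source (9.63%). The 3′ GC slope gave 0 for soy restriction (2.6%), 0 for protein source (0.0417%) and 2 for the difference (4.4%). Without livers 3 to 6 of Soy-20% + SAA there were 0 for soy restriction (2.54%), 0 for protein source (0.024%) and 0 for the difference (2.27%). One fit over 5 diets gave 18 for soy restriction (24.5%), 14 for the supplement (14.3%) and 19 for protein source (18.6%). With the replicate number as a block there were 12 called members for casein restriction (22%) and 11 for soy restriction (16.8%). There were 0 for protein source (1.18%), 6 for the difference (10.2%) and 28 over 5 diets (42.6%). Leaving out each liver in turn gave 12 to 16 for casein restriction, 3 to 18 for soy restriction, 0 to 0 for soy restriction against Soy-20%, 0 to 11 for the supplement, 0 to 13 for protein source, 4 to 13 for the difference and 27 to 35 over 5 diets. The number of all genes called then ran from 2601 to 2888, 1219 to 3119 and 50 to 146 in the first 3 of these. It ran from 0 to 1587, 9 to 1817, 719 to 1941 and 4626 to 6074 in the others, in the same order. The cause of these shifts was not tested.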
